A study of Rattus norvegicus with 65 samples.

Results

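The subject is the liver response to a single dose of 2-AAF (2-acetylaminofluorene) in male, 6-week-old Sprague-Dawley rats. It was read on 6 of the 65 arrays of the series, 1 array per rat: the 3 arrays titled 2-AAF short, set against the 3 arrays titled control in the genotoxic set. The arrays were chosen by their titles alone, and each gene is given by 1 value per rat, that of its brightest probe set with a single gene symbol. The short arrays carry a label of 3 hours. The control rats are labelled as controls of the same set with no time given, so dosing and time after dosing cannot be told apart. Arrays of 3 rats of 2-AAF long (repeated dosing, labelled 72 hours), 3 of 3MeDAB short (another genotoxic carcinogen of the set) and 2 of DEN short (a further one) show where the 2-AAF short livers differ from other groups. They also enter the fit that sets the error of every gene, which took 41 arrays in 14 groups. The other groups in it were 3MeDAB long, DEN long and the nongenotoxic set. That set holds dioxane, clofibrate and ethionine, each short and long, and its own control. The livers are whole tissue. Levels are log2 signals, on which a difference of 1 is a 2-fold change, and every difference below is a log2 difference ± SE.

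2-AAF is an aromatic amide that the liver turns into a DNA-binding carcinogen. Cytochrome P450 1A2 adds a hydroxyl group to its nitrogen, and sulfotransferases and acetyltransferases then make esters that break down to ions that bind guanine. Like other flat aromatic compounds it can occupy the aryl hydrocarbon receptor (AHR), which switches on the Cyp1 genes, and damaged DNA stabilises p53, which switches on genes that stop the cell cycle, such as Cdkn1a.

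The 6 arrays were alike in scale, with medians that lay within the range of 6.14 to 6.26 of the whole genotoxic set. The 3′ to 5′ difference of the Gapdh control probes, a sign of RNA quality, was 0.48, 0.97 and 0.60 in 2-AAF short rats, against 0.44, 0.45 and 0.63 in control rats. Control rats 2 and 3 were closely alike, with 3 tested genes more than 1 apart. Control rat 1 differed from them by more than 1 in 118 and 107 genes. The 2-AAF short rats differed among themselves in 110 to 252 genes. The hepatocyte marker albumin (Alb) had 14.71, 14.73 and 14.77 in 2-AAF short rats, against 14.78, 14.75 and 14.95 in control rats, near the top of the scale, whereas 2 of 13 measured pancreas markers, Prss1 and Ins2, picked after their values were seen, had 5.00, 4.85 and 4.71 in 2-AAF short rats, against 5.03, 5.05 and 5.01 in control rats, and 5.18, 5.00 and 5.09 in 2-AAF short rats, against 5.17, 5.14 and 5.07 in control rats. The 4 pancreas markers that passed the filter on dim genes averaged 7.28 to 7.66 in 2-AAF short rats, against 7.65 to 7.72 in control rats.

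At an adjusted p under 0.05 (limma with Benjamini-Hochberg adjustment over 11007 tested genes), 470 genes were higher in 2-AAF short livers, 4.27% of those tested, and 465 were lower, 4.22%. Of these, 103 were higher and 54 lower by more than 1. The 3 treated rats lay wholly above the 3 control rats in 1502 genes (13.6%) and wholly below them in 1688 (15.3%). The count of called genes rested on single rats: it was 399 without 2-AAF short rat 1 or without rat 3, 1356 without rat 2, and 531, 440 and 577 without control rat 1, 2 or 3. Among the 15 genes with the highest differences, 2-AAF short rat 1 stood farthest from the control mean in 12 and rat 2 stood nearest in 11. Over all 470 genes called higher, rat 2 was the nearest in 324, and over the 465 called lower in 337. Rat 2 also had the highest Gapdh 3′ to 5′ difference of the 6 rats, and the part of RNA quality in this order was not tested.

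**Figure D1:**
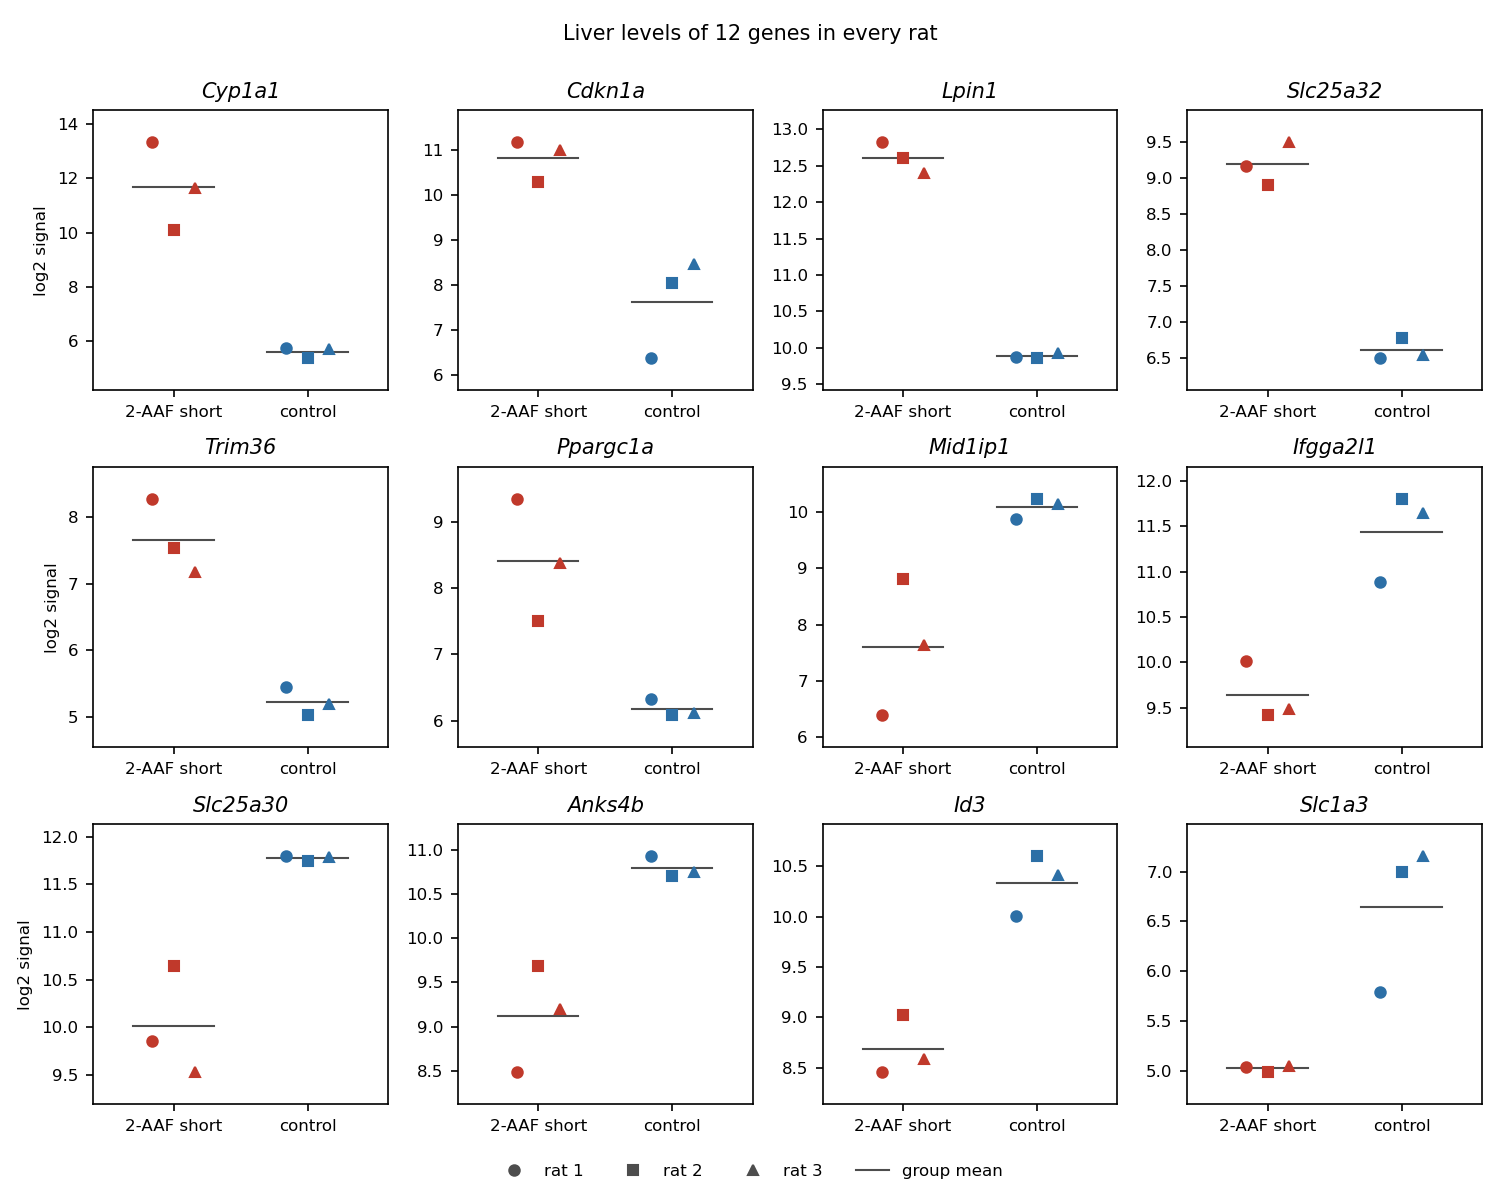
Log2 signal of 12 genes (vertical axis, own scale in each panel) in each 2-AAF short rat (red) and each control rat (blue); symbols mark the rat number and lines the group means. In all 12 panels the 3 treated rats lie on one side of the 3 control rats, which the choice of leading genes without overlap of rats required. Cyp1a1 has the largest difference of group means, 6.07.

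The largest difference on the array belonged to Cyp1a1, the monooxygenase gene that serves as the standard readout of AHR activity. It had 13.32, 10.10 and 11.63 in 2-AAF short rats, against 5.75, 5.38 and 5.72 in control rats, so the lowest treated rat stood far above the highest control. The difference was 6.07 ± 0.60, adjusted p = 2.51e-07, and it held under all 15 alternatives. Cyp1a2, the enzyme that activates 2-AAF by N-hydroxylation and is abundant in untreated liver, was higher by 0.52 ± 0.14, adjusted p = 0.0142. It had 13.45, 13.06 and 13.01 in 2-AAF short rats, against 12.74, 12.56 and 12.64 in control rats. The call for Cyp1a2 was lost without 2-AAF short rat 1 or control rat 2, with adjusted p-values up to 0.16 over all alternatives.

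Most other genes of the AHR battery were not called. Of 9 tested AHR targets, 2 were called higher, where 4.27% of all tested genes were, and none lower. Their median was 0.21, against -0.02 over all tested genes. The median of the list changed sign without 2-AAF short rat 1, at -0.10, and ran up to 0.52 with the stricter filter on dim genes. The quinone reductase gene Nqo1 differed by 0.06 ± 0.24, adjusted p = 0.924, with a 95% interval from -0.43 to 0.55. Cyp1b1, a further member of the family, differed by 0.08 ± 0.19, adjusted p = 0.861. Tiparp, which encodes an ADP-ribosyltransferase that feeds back on AHR, was high in one treated rat, with 11.40, 9.20 and 8.96 in 2-AAF short rats, against 8.76, 9.46 and 9.34 in control rats. The Tiparp difference of 0.67 did not pass (adjusted p = 0.256). Ahrr, the AHR repressor, had 4.35, 4.33 and 4.32 in 2-AAF short rats, against 4.26, 4.32 and 4.31 in control rats, and it did not pass the filter on dim genes.

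Among 17 tested genes of arylamine metabolism, 3 were called higher and 1 lower, where 4.27% and 4.22% of all tested genes were. Ces2c, a carboxylesterase gene, was higher by 1.15 ± 0.25, adjusted p = 0.00376, with 9.98, 9.12 and 10.25 in 2-AAF short rats, against 8.22, 8.75 and 8.91 in control rats. The call of Ces2c was lost without 2-AAF short rat 3. Sult1b1, a cytosolic sulfotransferase gene, was higher by 0.22 (adjusted p = 0.0491), and Nat1, an arylamine N-acetyltransferase gene, was lower at -0.72 (adjusted p = 0.0479). Both lie close to the threshold, and each lost its call when any of 5 or more of the 6 rats was left out. The median of the list was -0.09, and no member was called without both rats numbered 1.

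Cdkn1a, which encodes the p53-induced inhibitor of cyclin-dependent kinases p21, had the second highest difference. It had 11.16, 10.28 and 10.99 in 2-AAF short rats, against 6.38, 8.04 and 8.46 in control rats, with no overlap, although the control rats themselves spread over more than 2 units and control rat 1 was the lowest. The difference was 3.19 ± 0.43, adjusted p = 1.73e-05. It kept its call in every alternative, with the lowest value at 2.38. A second probe set of Cdkn1a gave 1.63, also called. Trim36, an E3 ubiquitin ligase gene that p53 induces in human cells, was higher by 2.43 ± 0.44, adjusted p = 0.000573. It had 8.26, 7.54 and 7.17 in 2-AAF short rats, against 5.46, 5.03 and 5.19 in control rats, a clear gap between the groups.

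The p53 targets were mixed. The list's median was 0.13. Of 27 tested, 6 were called higher and 1 lower, where 4.27% and 4.22% of all tested genes were. Beside Cdkn1a and Trim36, the members called higher were Gdf15, a stress-induced cytokine gene, at 1.37 ± 0.41, adjusted p = 0.0338, Tp53inp1, whose product promotes p53-dependent cell death, at 1.18 ± 0.23, adjusted p = 0.00123, Sesn2, a sestrin gene, at 0.77 (adjusted p = 0.0102) and Ccng1, the cyclin G1 gene, at 0.62 (adjusted p = 0.00724). The 1 lower member was Dram1, a lysosomal gene, at -1.05 ± 0.28, adjusted p = 0.0162. The rise of Gdf15 rested on 1 rat, since it had 9.0, 6.25 and 6.55 in 2-AAF short rats, against 5.71, 5.92 and 6.06 in control rats, and without 2-AAF short rat 1 its difference was 0.50. The calls were lost without 2-AAF short rat 1 or control rat 1, 2 or 3 for Gdf15, without 2-AAF short rat 1 or control rat 1 for Sesn2, without 2-AAF short rat 3 or control rat 3 for Ccng1 and without 2-AAF short rat 1 or control rat 2 or 3 for Dram1. Mdm2, the ubiquitin ligase that p53 itself induces as its own brake, had 8.74, 8.46 and 8.64 in 2-AAF short rats, against 8.44, 8.54 and 8.62 in control rats. Its difference of 0.08 had a 95% interval from -0.32 to 0.48. Leaving out 1 rat at a time, 4 to 8 members of the list were called higher.

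Of 35 tested DNA repair genes, 1 was called higher and none lower. It was Ercc8, a gene of transcription-coupled repair, at 0.44 ± 0.14, adjusted p = 0.0491, and its call was lost when any of 5 of the 6 rats was left out. Mgmt, which removes alkyl groups from guanine, had 8.94, 9.33 and 8.80 in 2-AAF short rats, against 9.47, 9.01 and 9.04 in control rats. Its difference was -0.15 ± 0.13, adjusted p = 0.535. None of 45 proliferation genes was called in either direction by limma, with differences from -0.56 to 0.35, and leaving out 1 rat gave up to 3 lower calls. Over all tested genes 4.27% were called higher and 4.22% lower, so the few calls in the repair and proliferation lists are no result about them.

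Promoter sequence is shown for 5 of the 15 highest genes, chosen after the search from those whose windows hold a motif searched. The windows of Lpin1, Usp2 and Zfp354a, which had larger differences than some of these 5, hold none of the motifs searched. Those of Noct, Tsku and Slc25a29, also among the 15 highest, hold only the AHR-element core named below and are not shown. RefSeq windows of build GRCr8, from 250 bases before to 50 bases after the annotated start, were found for 25 of the 30 leading genes; Cyp1a1 is among those without one. Capitals mark, on either strand, the AHR-element core GCGTG, the E-box CACGTG, the cAMP response element TGACGTCA and the p53 consensus decamer. No motifs overlap in these 5 windows. The windows are chr20:7150682-7150981 (plus strand) for Cdkn1a, chr18:41099448-41099747 (minus strand) for Trim36, chr14:63634058-63634357 (plus strand) for Ppargc1a, chr7:9430669-9430968 (minus strand) for Gadd45b and chr12:43989995-43990294 (minus strand) for Spring1.
Cdkn1a: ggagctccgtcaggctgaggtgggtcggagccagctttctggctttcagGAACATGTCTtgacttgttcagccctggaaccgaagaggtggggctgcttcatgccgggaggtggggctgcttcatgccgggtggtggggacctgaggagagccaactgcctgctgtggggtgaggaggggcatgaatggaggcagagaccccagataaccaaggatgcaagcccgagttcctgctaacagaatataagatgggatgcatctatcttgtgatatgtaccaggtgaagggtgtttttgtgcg
Trim36: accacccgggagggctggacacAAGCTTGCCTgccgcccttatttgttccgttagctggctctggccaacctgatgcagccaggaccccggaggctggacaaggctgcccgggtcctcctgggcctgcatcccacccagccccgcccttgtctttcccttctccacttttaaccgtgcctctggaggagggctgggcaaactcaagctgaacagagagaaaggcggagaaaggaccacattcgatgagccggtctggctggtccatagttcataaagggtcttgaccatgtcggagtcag
Ppargc1a: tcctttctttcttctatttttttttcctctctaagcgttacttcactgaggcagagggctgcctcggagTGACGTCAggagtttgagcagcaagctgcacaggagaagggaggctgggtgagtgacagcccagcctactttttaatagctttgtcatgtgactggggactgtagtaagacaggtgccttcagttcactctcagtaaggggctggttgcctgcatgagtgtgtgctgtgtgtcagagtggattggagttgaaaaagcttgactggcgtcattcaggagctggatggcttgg
Gadd45b: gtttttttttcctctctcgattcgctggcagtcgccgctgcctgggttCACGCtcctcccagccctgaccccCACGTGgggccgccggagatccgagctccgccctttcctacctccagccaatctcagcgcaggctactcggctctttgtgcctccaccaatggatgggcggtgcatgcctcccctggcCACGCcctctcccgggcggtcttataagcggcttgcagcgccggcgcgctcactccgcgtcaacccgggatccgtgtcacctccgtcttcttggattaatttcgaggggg
Spring1: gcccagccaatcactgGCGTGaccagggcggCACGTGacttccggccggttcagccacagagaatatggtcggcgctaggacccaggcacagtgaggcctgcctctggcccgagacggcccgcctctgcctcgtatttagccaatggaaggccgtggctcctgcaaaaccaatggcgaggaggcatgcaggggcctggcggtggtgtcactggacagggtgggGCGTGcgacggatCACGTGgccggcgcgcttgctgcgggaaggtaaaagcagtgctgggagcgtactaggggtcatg
The Cdkn1a and Trim36 windows each hold 1 p53 consensus decamer, which 7.98% of all 33469 windows hold. This decamer is a p53 half-site, not a whole site. Only exact matches were searched, so a neighbouring half-site that departs from the consensus would not be marked. The Ppargc1a window holds 1 cAMP response element, found in 1.83% of all windows. Gadd45b holds 1 E-box and 2 AHR-element cores, and Spring1 holds 2 of each. The E-box stands in 6.42% of all windows and the AHR-element core in 29.7%. Among the windows of the 15 highest genes, 5 of 11 hold the AHR-element core, and among those of the 15 lowest, 5 of 16 windows do. The p53 decamer stands in 2 of 11 and 5 of 16 of these windows, the last including 3 overlapping windows of Slc1a3. These matches are letters in a window, with no binding measured.

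Genes of gluconeogenesis and of the glucocorticoid response were the list with the most higher calls. Of 30 tested, 12 were called higher, where 4.27% of all tested genes were, and none lower. The median was 0.60, and 27 lay above 0. Background for the list is that fasting and stress hormones switch on these genes together in hepatocytes, through glucocorticoid receptor, CREB and the coactivator that Ppargc1a encodes. Ppargc1a had 9.34, 7.50 and 8.38 in 2-AAF short rats, against 6.32, 6.09 and 6.12 in control rats, and the treated rats kept the same order here as for Cyp1a1, with rat 1 highest and rat 2 lowest. Its difference was 2.23 ± 0.32, adjusted p = 3.2e-05. Lpin1, a phosphatidate phosphatase gene whose product also works with that coactivator, had 12.82, 12.61 and 12.40 in 2-AAF short rats, against 9.88, 9.86 and 9.93 in control rats, with a wide gap and little spread in either group. Its difference was 2.72 ± 0.45, adjusted p = 0.000235.

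Sds, the serine dehydratase gene that feeds serine into gluconeogenesis, was higher by 2.44 ± 0.63, adjusted p = 0.0134, with 13.05, 11.33 and 12.19 in 2-AAF short rats, against 9.70, 9.74 and 9.81 in control rats. Without 2-AAF short rat 1 it no longer passed (adjusted p = 0.0996). Tat, the tyrosine aminotransferase gene and a classical glucocorticoid target, was higher by 1.86 ± 0.35, adjusted p = 0.000786. Fkbp5, a co-chaperone gene that glucocorticoids induce, had 10.61, 9.79 and 10.78 in 2-AAF short rats, against 8.33, 8.53 and 8.53 in control rats. Its difference was 1.93 ± 0.36, adjusted p = 0.00083, and both Tat and Fkbp5 passed under every alternative. Foxo1, an insulin-restrained activator of glucose production, was higher by 1.12 ± 0.24, adjusted p = 0.00252, and Igfbp1, an insulin-repressed binding protein gene, by 1.23 ± 0.32, adjusted p = 0.0163. Pdk4, which holds back pyruvate oxidation, differed by 1.48 (adjusted p = 0.028). Control rat 1 was its lowest at 10.23, where the others had 11.58 and 11.55. The calls were lost without 2-AAF short rat 1 or 3 or control rat 1 for Pdk4 and without 2-AAF short rat 1 or 3 or control rat 1 for Igfbp1. Pck1, the gene of the rate-limiting enzyme of gluconeogenesis, was already bright and had 13.46, 13.54 and 13.65 in 2-AAF short rats, against 13.50, 13.39 and 13.30 in control rats. Its difference of 0.16 did not pass (adjusted p = 0.452). The list had 7 to 13 higher calls when 1 rat was left out (7 without 2-AAF short rat 1 and 8 without control rat 1), and 5 without both rats numbered 1.

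The urea cycle and amino acid breakdown list overlaps it in Tat, Sds and Tdo2, the tryptophan dioxygenase gene. Of 38 tested, 7 were called higher, where 4.27% of all tested genes were, and none lower. In this list 32 lay above 0, with a median of 0.19. With 1 rat left out, 4 to 9 were called higher, 4 without 2-AAF short rat 1, and 2 without both rats numbered 1. Asl, the argininosuccinate lyase gene, was higher by 0.78 ± 0.20, adjusted p = 0.0129, and Arg1, the arginase gene, by 0.32 ± 0.07, adjusted p = 0.00408. Slc25a15, the mitochondrial ornithine carrier gene, had 13.36, 12.93 and 13.56 in 2-AAF short rats, against 12.57, 12.63 and 12.66 in control rats, every treated rat above every control. Its difference was 0.66 ± 0.16, adjusted p = 0.00783. The calls were lost without 2-AAF short rat 1 or 3 or control rat 2 or 3 for Asl and without 2-AAF short rat 3 for Slc25a15.

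**Figure D2:**
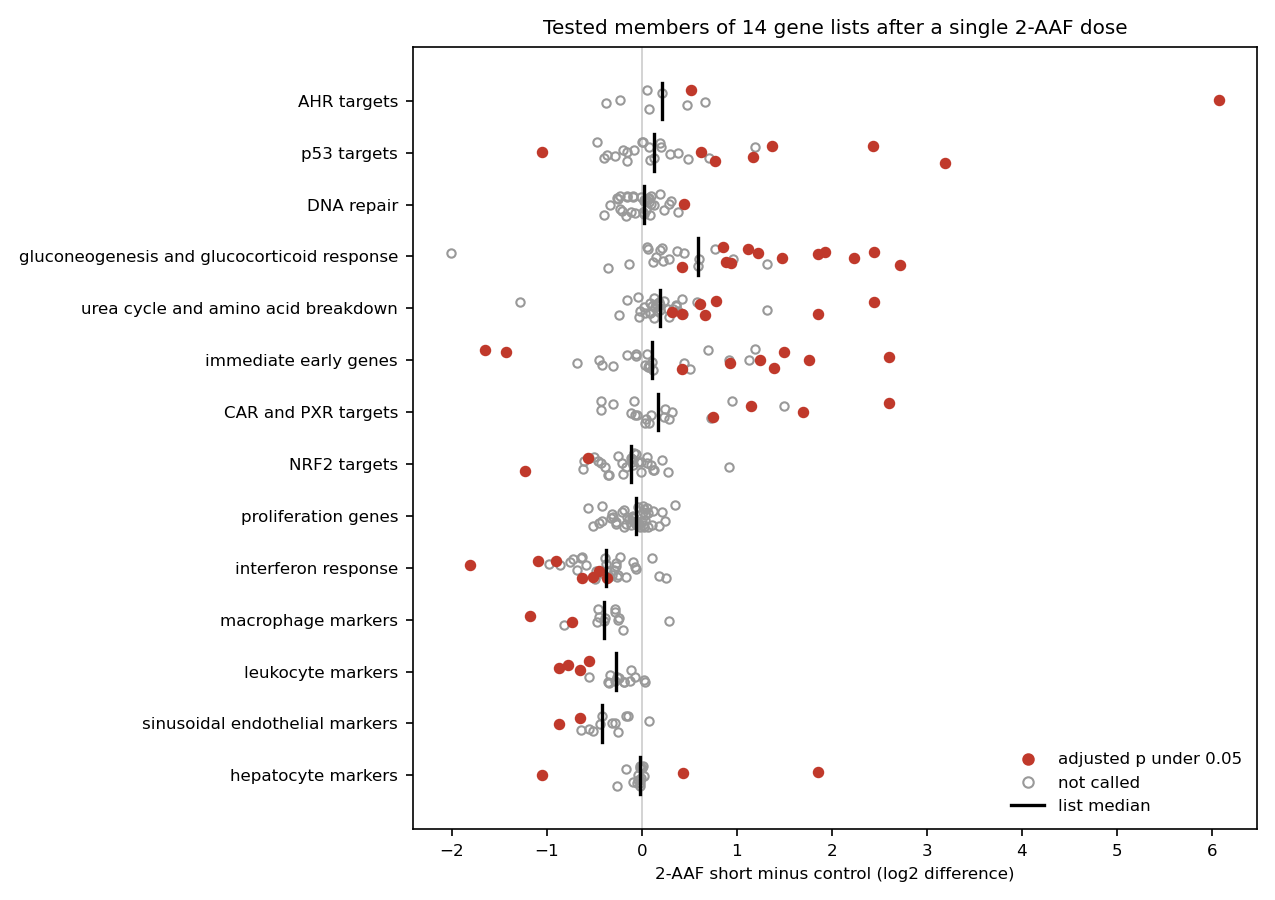
Log2 differences, 2-AAF short minus control (horizontal axis), of the tested members of 14 gene lists (rows). Filled red points passed an adjusted p under 0.05, open points did not, and black bars are list medians; the gluconeogenesis and glucocorticoid list has its median at 0.60, and the interferon list at -0.38.

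Slc25a32, which brings folate and flavin nucleotides into mitochondria, had 9.18, 8.90 and 9.50 in 2-AAF short rats, against 6.50, 6.77 and 6.54 in control rats. Its difference was 2.59 ± 0.30, adjusted p = 2.38e-06, and the lowest under any alternative was 2.43. Slc25a29, a mitochondrial carrier of basic amino acids, had 9.92, 8.54 and 9.54 in 2-AAF short rats, against 7.22, 7.29 and 7.37 in control rats. Its difference was 2.04 ± 0.21, adjusted p = 5.56e-07, again with rat 1 highest and rat 2 lowest. Mfsd2a, a lysophospholipid transporter gene that fasting induces in mouse liver, was higher by 2.12 ± 0.33, adjusted p = 0.000127, with 12.23, 11.93 and 11.91 in 2-AAF short rats, against 10.23, 9.62 and 9.86 in control rats. Spring1, whose product licenses the protease that activates sterol regulatory proteins, was higher by 1.98 ± 0.25, adjusted p = 6.66e-06. A second probe set of Spring1 gave 0.56, also called. Tsku, which encodes a secreted leucine-rich protein of hepatocytes, was higher by 2.41 (adjusted p = 0.0085), a call that was lost without 2-AAF short rat 1 or control rat 2.

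The clock genes need the control rats read one by one. Control rat 1 stood apart from the other controls. Dbp, an output activator of the clock, had 6.51, 7.28 and 6.34 in 2-AAF short rats, against 10.24, 6.19 and 5.99 in control rats, and Bmal1, the core activator, had 7.92, 7.62 and 7.89 in 2-AAF short rats, against 5.91, 8.02 and 8.02 in control rats. Nr1d1, the repressor of Bmal1, had 8.68, 9.07 and 8.68 in 2-AAF short rats, against 9.13, 7.48 and 7.43 in control rats. None of these 3 passed, with adjusted p-values of 0.633, 0.639 and 0.187. In Nr1d1 the treated rats lay above control rats 2 and 3 and below control rat 1. Of 17 tested clock genes, 2 were called higher, where 4.27% of all tested genes were. They were Noct, a rhythmic phosphatase gene, at 3.17 ± 0.76, adjusted p = 0.00848, and Per1, a clock repressor that glucocorticoids also induce, at 0.85 ± 0.27, adjusted p = 0.0465. Noct had 11.50, 8.54 and 8.98 in 2-AAF short rats, against 7.62, 5.66 and 6.24 in control rats, with no overlap but with a treated rat 1 far above the others. The calls were lost without 2-AAF short rat 1 or control rat 2 for Noct and without 2-AAF short rat 1, 2 or 3 or control rat 1, 2 or 3 for Per1. Per2 did not pass, at -0.04 ± 0.13, adjusted p = 0.895.

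Usp2, a deubiquitinase gene with a daily rhythm, and Zfp354a, a zinc finger gene, followed the same split of the controls. Usp2 had 9.27, 9.41 and 8.98 in 2-AAF short rats, against 8.58, 5.48 and 5.88 in control rats, and Zfp354a had 12.50, 12.29 and 12.56 in 2-AAF short rats, against 11.23, 8.76 and 8.69 in control rats. In both genes control rat 1 lay between the treated rats and the other controls. Their differences were 2.57 (adjusted p = 0.0123), lost without control rat 2 or 3, and 2.89 (adjusted p = 0.00509). The part of the daily cycle in these differences was not tested, since the labels give no hour of killing.

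**Figure D3:**
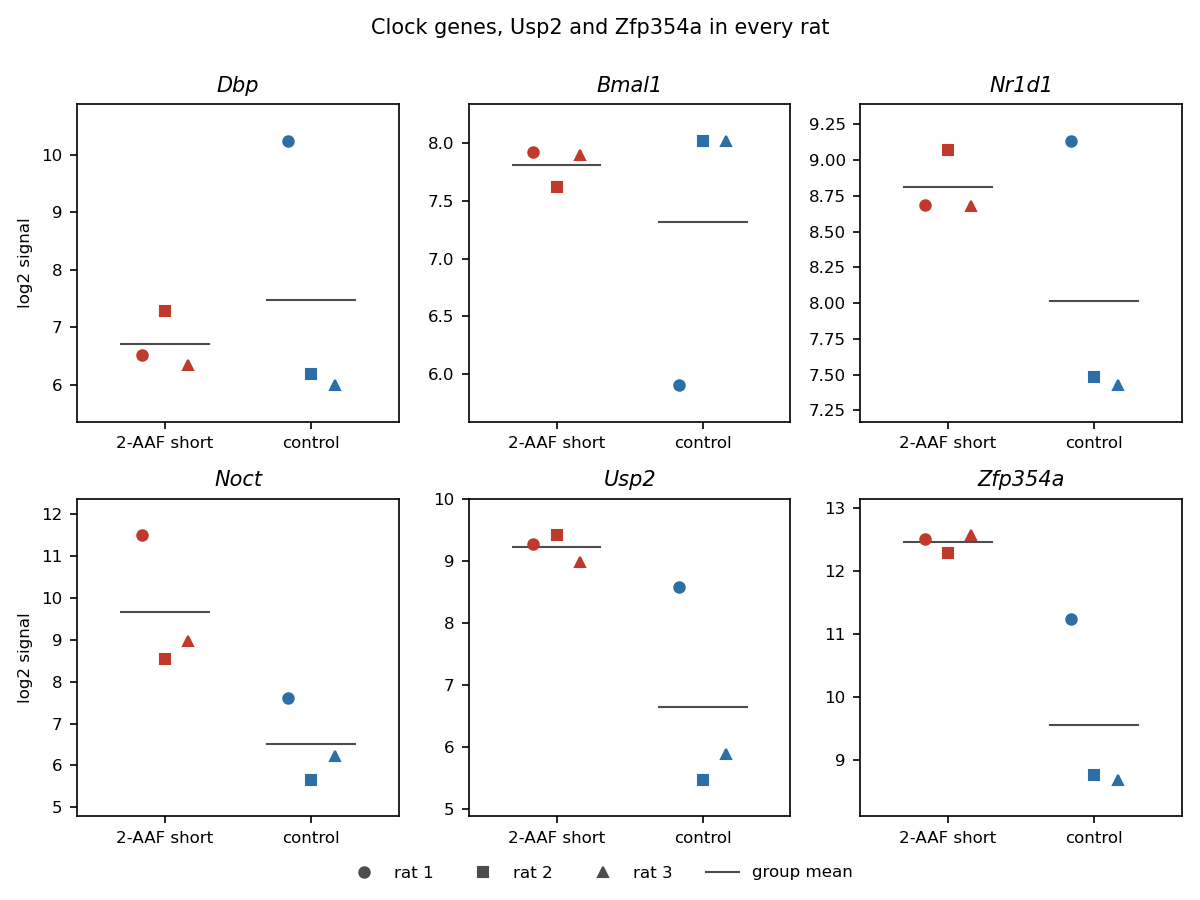
Log2 signal of 6 genes (vertical axis, own scale in each panel) in each 2-AAF short rat (red) and control rat (blue), with lines at group means. Control rat 1 (circle) lies apart from the other controls in all 6 panels, and its Dbp of 10.24 is the highest of the 6 rats.

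Immediate early genes, the first transcripts made after a stimulus, were mixed. Of 29 tested, 7 were called higher and 2 lower, where 4.27% and 4.22% of all tested genes were. The median was 0.11. Gadd45b, a stress-induced gene that xenobiotics also switch on through the receptor CAR, was higher by 2.60 ± 0.53, adjusted p = 0.00186, with 10.73, 8.91 and 9.57 in 2-AAF short rats, against 7.64, 7.00 and 6.76 in control rats. Rhob, a small GTPase gene induced by DNA damage, was higher by 1.76 ± 0.30, adjusted p = 0.000286, and Klf6, a zinc finger activator gene, by 1.49 ± 0.27, adjusted p = 0.000681. Atf3, a stress-induced repressor gene, differed by 1.39 (adjusted p = 0.0476), Jun by 1.24 (adjusted p = 0.0489), Zfp36, which destabilises messenger RNA, by 0.93 (adjusted p = 0.0491) and Jund by 0.42 (adjusted p = 0.0464). The 2 that fell were Id3, a helix-loop-helix inhibitor gene, and Dusp6, a phosphatase that ends ERK signalling, at -1.43 (adjusted p = 0.0385). With rats left out in turn the list had 3 to 7 higher calls, 3 each without 2-AAF short rat 1 or control rat 1.

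Of 22 tested targets of the drug receptors CAR and PXR, 4 were called higher, where 4.27% of all tested genes were, and none lower. Por, the reductase that supplies electrons to all microsomal P450 enzymes, had 11.93, 11.79 and 12.01 in 2-AAF short rats, against 10.74, 9.93 and 9.97 in control rats. Its difference was 1.70 ± 0.27, adjusted p = 0.000134. Nr1i2, the PXR gene itself, was higher by 0.75 ± 0.13, adjusted p = 0.000362 and had 10.08, 10.10 and 10.04 in 2-AAF short rats, against 9.38, 9.29 and 9.31 in control rats, with little spread in either group. The other 2 were Gadd45b and Ces2c.

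NRF2 targets, the antioxidant battery, showed no higher call among 32 tested and 2 lower calls, Osgin1 at -1.23 ± 0.35, adjusted p = 0.0259 and Gclm, a subunit gene of glutathione synthesis, at -0.56 ± 0.17, adjusted p = 0.0391. The calls were lost without 2-AAF short rat 1 or 3 or control rat 2 or 3 for Osgin1 and without 2-AAF short rat 1 or 3 or control rat 1 or 2 for Gclm. Of 31 integrated stress response genes, 5 were called higher and 1 lower, among them Cebpb at 0.94 ± 0.18, adjusted p = 0.000981 and, lower, Chac1, which degrades glutathione, at -1.43 ± 0.44, adjusted p = 0.0388. With 1 rat left out, 1 to 4 were called higher (1 without 2-AAF short rat 1), and without both rats numbered 1 none was called in either direction by limma. Of 34 PPAR alpha targets, 3 were called higher, where 4.27% of all tested genes were, and 0 to 3 were with 1 rat left out (1 without control rat 1): Pdk4, the peroxisome gene Pex11a at 1.45 ± 0.35, adjusted p = 0.00887, and Crat, a carnitine acetyltransferase gene, at 1.00 ± 0.26, adjusted p = 0.0148. Of 17 heat shock genes, Hspa1a was higher by 0.78 ± 0.18, adjusted p = 0.00489 and Dnaja1 lower at -0.31 ± 0.09, adjusted p = 0.036. A second probe set of Dnaja1 gave -0.20, not called. Of 20 genes of endoplasmic reticulum chaperones and folding, Edem1 was higher by 0.96 ± 0.23, adjusted p = 0.00915 and Xbp1 lower at -0.59 ± 0.17, adjusted p = 0.0277. None of the 22 bile acid genes and none of the 17 heme genes was called in either direction by limma. Over all tested genes 4.27% were called higher and 4.22% lower. The counts of NRF2, heat shock, endoplasmic reticulum, bile acid and heme genes are near these shares, so they are no result about those lists.

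In lipid synthesis only single genes were called. Of 22 tested lipogenesis genes, Lpin1 and Insig1, the sterol sensor's anchor protein gene, were higher, the last by 1.37 ± 0.38, adjusted p = 0.0223, a call that was lost without 2-AAF short rat 1 or control rat 1, 2 or 3. Mid1ip1, whose product makes acetyl-CoA carboxylase polymerise, had the largest fall among the 465 lower genes. It had 6.39, 8.80 and 7.63 in 2-AAF short rats, against 9.88, 10.23 and 10.15 in control rats, with treated rat 1 again farthest from the controls. Its difference was -2.48 ± 0.45, adjusted p = 0.000663, a call that was lost in the fit on the compared groups alone. Srebf1, Fasn and Scd, a regulator and 2 enzyme genes of fatty acid synthesis, did not pass, with differences of -0.02, -0.58 and 0.24. Of 19 cholesterol synthesis genes only Insig1 was called. As 4.27% of all tested genes were called higher and 4.22% lower, the few calls are no result about either list.

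The other leading lower genes had varied roles. Id3 had 8.46, 9.02 and 8.59 in 2-AAF short rats, against 10.00, 10.60 and 10.41 in control rats. Its difference was -1.65 ± 0.23, adjusted p = 3.2e-05. Anks4b, a scaffold gene of liver and gut epithelium, had 8.48, 9.68 and 9.20 in 2-AAF short rats, against 10.93, 10.71 and 10.75 in control rats, and its difference was -1.67 ± 0.24, adjusted p = 3.88e-05. Slc25a30, a mitochondrial carrier gene, had 9.86, 10.64 and 9.53 in 2-AAF short rats, against 11.79, 11.75 and 11.79 in control rats, so the controls were nearly identical while the treated rats spread over more than 1 unit. Its difference was -1.77 ± 0.32, adjusted p = 0.000606. Id3, Anks4b and Slc25a30 passed under every alternative, as did Ifgga2l1 and Slc1a3 among the 15 lowest.

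Rtp3, a liver receptor-transporter gene, was lower at -1.96 ± 0.37, adjusted p = 0.00091, and its call was also lost with the compared groups alone. Slc1a3, a glutamate transporter gene, was near the bottom of the scale in all treated rats, with 5.04, 4.99 and 5.04 in 2-AAF short rats, against 5.79, 6.99 and 7.15 in control rats. Its difference was -1.62 ± 0.36, adjusted p = 0.00421. Efemp1, a matrix protein gene, Upk1b, a uroplakin gene, Irx1, a homeobox gene, Mex3b, an RNA-binding protein gene, and Dipk2a, a secretory kinase-like gene, were lower by 1.46 to 1.67, and each lost its call in at least 1 alternative. A second tested probe set of Dipk2a gave -0.09, not called. Cish and Socs2, feedback inhibitors that growth hormone induces through STAT5, were the 2 lower calls among 30 genes of the growth hormone response. The list also had 1 higher call. As 4.27% of all tested genes were called higher and 4.22% lower, these few calls are no result about the list. Cish had 6.47, 5.97 and 6.03 in 2-AAF short rats, against 6.63, 8.43 and 8.49 in control rats. Socs2 had 7.70, 5.34 and 5.53 in 2-AAF short rats, against 7.67, 8.83 and 8.62 in control rats, and treated rat 1 lay within the controls. Their differences were -1.69 ± 0.43, adjusted p = 0.0134, and -2.18 ± 0.57, adjusted p = 0.0157. A second probe set of Cish gave -0.51, not called. The calls were lost without 2-AAF short rat 3 or control rat 2 or 3 for Cish and without 2-AAF short rat 2 or 3 or control rat 2 or 3 for Socs2.

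Interferon-response genes were the list with the most lower calls. Of 36 tested, 7 were called lower, where 4.22% of all tested genes were, and none higher. The median was -0.38 and 3 lay above 0. Ifgga2l1, a gene of the interferon-inducible GTPases, had 10.02, 9.42 and 9.48 in 2-AAF short rats, against 10.88, 11.80 and 11.65 in control rats. Its difference was -1.81 ± 0.38, adjusted p = 0.00247. Gbp2, a guanylate-binding protein gene, was lower at -1.09 ± 0.34, adjusted p = 0.0395, Irgm, an immunity-related GTPase gene, at -0.90 ± 0.26, adjusted p = 0.0259, and Igtp, of the same family, at -0.63 ± 0.19, adjusted p = 0.0289. Irf8, a transcription factor of myeloid cells, was lower at -0.51 ± 0.15, adjusted p = 0.0271. The mean level of the 36 genes was 7.99, 8.54 and 7.92 in 2-AAF short rats, against 8.51, 8.66 and 8.64 in control rats, so rat 2 lay within the control range. With rats left out in turn 1 to 16 members were called lower, 16 without 2-AAF short rat 2, 2 without 2-AAF short rat 1, 4 without control rat 1, and 1 each without 2-AAF short rat 3, control rat 2 or control rat 3.

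Macrophage, leukocyte and endothelial markers had lower mean levels in 2-AAF short rats 1 and 3, though most did not pass the test. The mean of 14 macrophage markers was 9.54, 10.30 and 9.66 in 2-AAF short rats, against 10.16, 10.24 and 10.35 in control rats. The mean of 18 leukocyte markers was 6.02, 6.41 and 6.07 in 2-AAF short rats, against 6.46, 6.50 and 6.52 in control rats, and that of 13 sinusoidal endothelial markers was 8.22, 8.79 and 8.36 in 2-AAF short rats, against 8.98, 8.95 and 8.64 in control rats. In these 3 lists, rats 1 and 3 lay below all controls, and rat 2 lay within or just below the control range. Medians of the differences were -0.39, -0.27 and -0.42, and 1 of 14, 2 of 18 and 1 of 13 markers lay above 0. The 3MeDAB short and DEN short groups also had means below the control mean in these lists. Macrophage markers averaged 9.89 and 9.83 there, against 10.25 in control. Leukocyte markers averaged 6.20 and 6.33, against 6.49, and endothelial markers 8.51 and 8.36, against 8.86. Lower means were thus not particular to 2-AAF. In whole liver, fewer cells of a type and less RNA per cell cannot be told apart, and the part of these cells in the interferon result was not tested.

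Of single markers, 2 of 14 macrophage, 4 of 18 leukocyte and 2 of 13 endothelial genes were called, all lower. Of all tested genes 4.22% were called lower. Bile duct, erythroid, and adipocyte and muscle markers had medians of 0.05, -0.04 and -0.01. Gpnmb, a macrophage glycoprotein gene, was lower at -1.18 ± 0.33, adjusted p = 0.0233, and Aif1 at -0.74 ± 0.24, adjusted p = 0.0463. Ptprc, the common leukocyte antigen gene, was lower at -0.65 ± 0.19, adjusted p = 0.0292, Gzma, a granzyme of cytotoxic cells, at -0.87 ± 0.25, adjusted p = 0.0275, Coro1a at -0.78 ± 0.21, adjusted p = 0.0192 and Cd8a at -0.56 ± 0.15, adjusted p = 0.0167. Second probe sets of Aif1 and Ptprc gave -0.02 and -0.26, neither called. Siglec5, a sialic acid receptor of myeloid cells, had 5.73, 8.07 and 6.87 in 2-AAF short rats, against 8.10, 8.29 and 8.56 in control rats, spread widely among the treated rats, and differed by -1.43 ± 0.39, adjusted p = 0.0204. Kdr and Emcn, receptor and mucin genes of endothelium, were lower at -0.65 (adjusted p = 0.0432) and -0.87 (adjusted p = 0.0368). Col1a2 and Col3a1, the 2 lower calls of 17 stellate cell and fibroblast markers, were lower at -0.69 and -0.38. Without 2-AAF short rat 1, none of the 14 macrophage, 18 leukocyte and 13 endothelial markers was called, and the same held without rat 3. Leaving out any 1 control rat left at most 1 call in each list, whereas 9, 6 and 5 were called lower without 2-AAF short rat 2.

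Hepatocyte markers had a mean of 13.03, 13.04 and 13.09 in 2-AAF short rats, against 13.00, 13.01 and 13.07 in control rats. Of 19 tested, Tat and Hnf4a were called higher, Hnf4a by 0.44 ± 0.11, adjusted p = 0.0159, and Foxa2 was lower at -1.05 ± 0.29, adjusted p = 0.0204. The other tested probe sets of Hnf4a gave 0.13 and -0.07, neither called. Krt19, a bile duct keratin gene, was lower at -1.05 ± 0.22, adjusted p = 0.00243 and passed in every alternative in which it was tested, while the other 4 tested bile duct markers did not pass. Among 36 acute phase and inflammation genes, Il6r, the interleukin-6 receptor gene, was higher by 1.30 ± 0.23, adjusted p = 0.000573, Nfkbiz by 1.22 ± 0.34, adjusted p = 0.0205, and Il1b was lower at -0.59 ± 0.17, adjusted p = 0.0254. A second probe set of Nfkbiz gave 0.03, not called. Tfrc, the transferrin receptor gene, was higher by 1.33 ± 0.29, adjusted p = 0.0032, the 1 call among 8 erythroid markers. Cidec, a lipid droplet gene, was the 1 call among 5 adipocyte and muscle markers, higher by 0.69 ± 0.17, adjusted p = 0.00964. None of 4 tested pancreas markers was called. As 4.27% of all tested genes were called higher and 4.22% lower, the few calls in these lists are no result about them.

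The 2-AAF short livers were then set against livers of the other genotoxic compounds at the same label, in which no control rat enters. Against 3MeDAB short, 176 genes were higher (1.6%) and 21 lower (0.191%), and after quantile normalization of all columns 147 were higher and 45 lower. Cyp1a1 was not called, with 13.32, 10.10 and 11.63 in 2-AAF short rats, against 11.77, 11.03 and 10.91 in 3MeDAB short rats. Its difference of 0.45 had a 95% interval from -0.77 to 1.67, which does not show that the compounds act alike. Ppargc1a had 9.34, 7.50 and 8.38 in 2-AAF short rats, against 6.45, 6.91 and 7.14 in 3MeDAB short rats, a difference of 1.57 ± 0.32, adjusted p = 0.00927. Slc25a29 was higher by 1.44 ± 0.21, adjusted p = 0.00046 and Slc25a32 by 1.28 ± 0.30, adjusted p = 0.0207. Of the genes highest against 3MeDAB, Coq10b, a coenzyme Q binding protein gene, was higher by 1.85 ± 0.40, adjusted p = 0.0146, and Pdk4 by 1.70 ± 0.43, adjusted p = 0.0338.

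Also higher than in 3MeDAB livers were Rell1 (1.69 ± 0.30, adjusted p = 0.00227), Pvr, the poliovirus receptor gene (1.72 ± 0.39, adjusted p = 0.0196), and Bcl3, an NF-kappa-B cofactor gene (2.10 ± 0.44, adjusted p = 0.012). The 5 lowest, led by Mab21l3 at -1.01 ± 0.22, adjusted p = 0.0165 and including Enpp1, Dock11, Zfp420 and Cxcl11, had smaller differences. Among the lists, 3 of 30 gluconeogenesis and glucocorticoid genes were higher than with 3MeDAB, where 1.6% of all tested genes were, and no p53 target was called. Cdkn1a did not pass against 3MeDAB, at 1.42 ± 0.43, adjusted p = 0.0829. Calls were so few in this comparison that a count of 0 is no result about a list. This holds for the 27 p53 targets, the 36 interferon genes, and the macrophage, leukocyte and endothelial markers. The interferon median was -0.03. The count against 3MeDAB depended on single rats: it was 21 without 2-AAF short rat 1, 32 without rat 3, 497 without rat 2 and 81 without 3MeDAB short rat 2.

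Against DEN short, 895 genes were higher (8.13%) and 449 lower (4.08%), with 2 DEN rats, and after quantile normalization 784 were higher and 681 lower. Cyp1a1 was higher by 5.39 ± 0.67, adjusted p = 1.88e-06, with 13.32, 10.10 and 11.63 in 2-AAF short rats, against 5.71 and 6.88 in DEN short rats. Esrrg, an orphan nuclear receptor gene, was higher by 2.17 ± 0.44, adjusted p = 0.000888, Lpin1 by 2.13 ± 0.50, adjusted p = 0.00414, Tor3a by 2.11 ± 0.42, adjusted p = 0.000803 and Ppargc1a by 2.04 ± 0.35, adjusted p = 0.000177. Esrrg was not called against control (-0.02, adjusted p = 0.981), and its DEN values were 5.45 and 5.26, below every control rat at 8.39, 7.25 and 7.03. Of 27 p53 targets, 2 were higher, 9 lower and 16 not called against DEN. Trim36 was higher by 1.97 ± 0.49, adjusted p = 0.00635, a call that was lost without DEN short rat 3. Mdm2 had 8.74, 8.46 and 8.64 in 2-AAF short rats, against 10.94 and 10.80 in DEN short rats, a difference of -2.26 ± 0.22, adjusted p = 2.2e-08. Ccng1 differed by -2.07 ± 0.16, adjusted p = 3.65e-10, Gdf15 by -2.29 ± 0.46, adjusted p = 0.000838 and Phlda3, a p53-induced brake on AKT, by -2.94 ± 0.18, adjusted p = 6.26e-13. Atf3 differed by -3.94 ± 0.50, adjusted p = 2.67e-06, Mybl1, a MYB family gene, by -3.75 ± 0.32, adjusted p = 8.97e-10, Tnfrsf12a by -2.66 ± 0.34, adjusted p = 3.2e-06 and Otud1, a deubiquitinase gene, by -2.37 ± 0.26, adjusted p = 3.35e-07. Cdkn1a did not pass, at -0.93 ± 0.48, adjusted p = 0.226.  The count ran from 600 without DEN short rat 3, and 623 without DEN short rat 2, to 1197 with single rats left out, where a lone DEN rat is assumed to vary like the other groups.

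**Figure D4:**
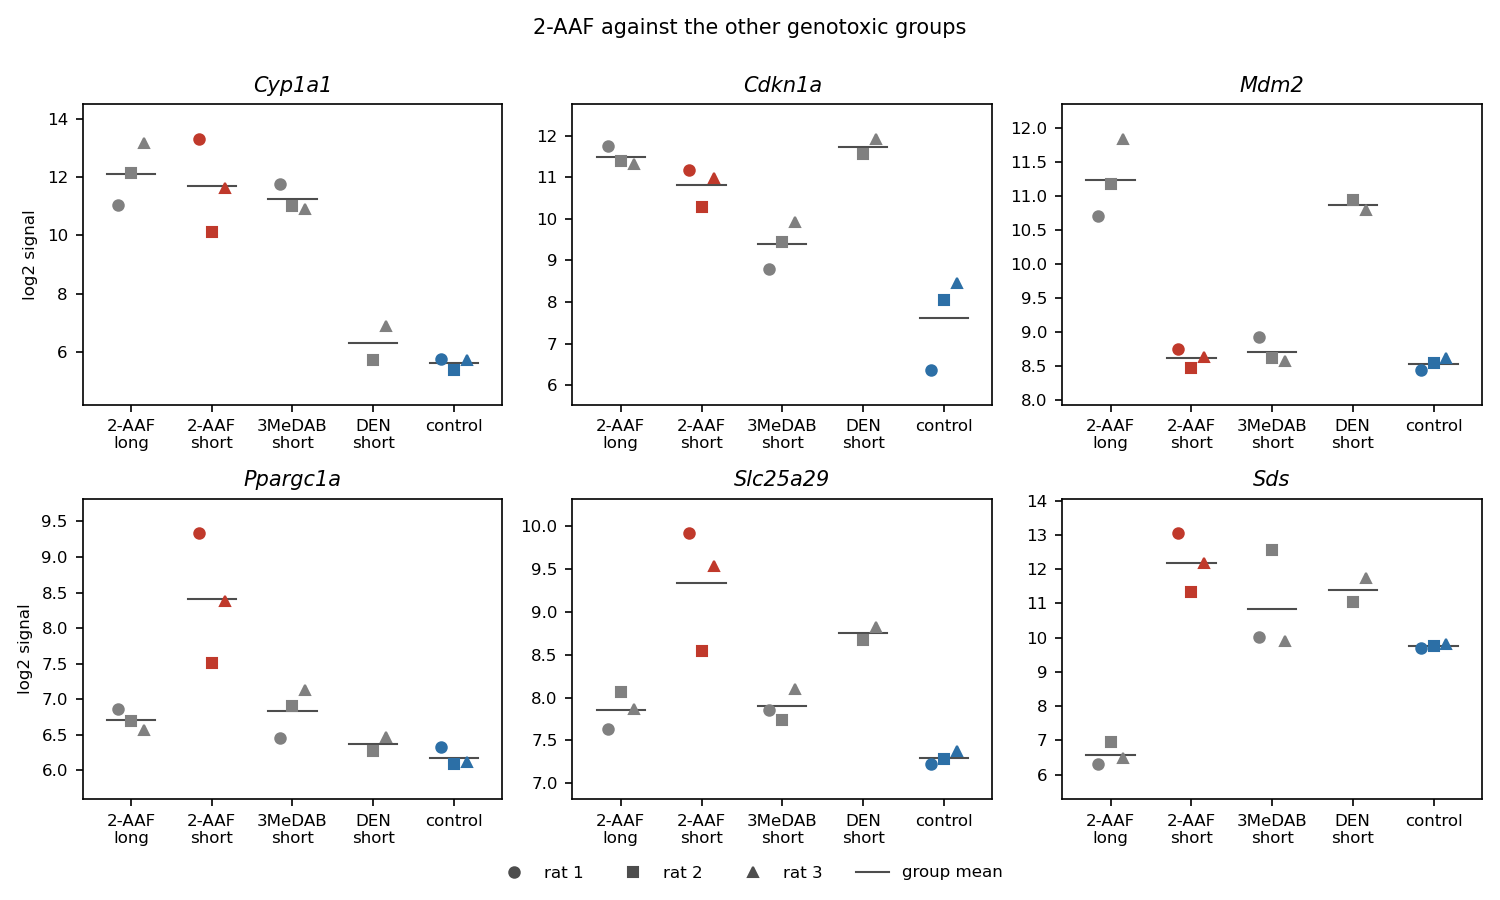
Log2 signal of 6 genes (vertical axis, own scale in each panel) in each rat of 2-AAF long, 2-AAF short, 3MeDAB short, DEN short and control, with symbols for rat number and lines at group means. Cyp1a1 is high in both 2-AAF groups and in 3MeDAB short, while Mdm2 is high in 2-AAF long and DEN short and near the control level in 2-AAF short.

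Repeated dosing was then set against the single dose, and all 4 comparisons share the 2-AAF short rats. 2-AAF long differed from 2-AAF short by 2013 higher genes (18.3%) and 1925 lower (17.5%). Cyp1a1 had 11.04, 12.15 and 13.16 in 2-AAF long rats, against 13.32, 10.10 and 11.63 in 2-AAF short rats, a difference of 0.43 that did not pass (adjusted p = 0.606), and Cdkn1a also did not pass (0.68, adjusted p = 0.223). Some p53 and repair genes not called after the single dose were higher in 2-AAF long, Mgmt by 3.27 ± 0.13, adjusted p = 2.02e-18, Mdm2 by 2.62 ± 0.20, adjusted p = 1.61e-11 and Phlda3 by 2.70 ± 0.16, adjusted p = 5.55e-14. Gpx2 and Gsta3, glutathione enzyme genes, Snx10, a sorting nexin gene, Abcc3, a conjugate exporter gene, and Fabp2, a fatty acid binding protein gene, were the 5 highest, from 3.31 for Fabp2 to 4.46 for Snx10. Of 32 NRF2 targets, 27 were higher after repeated dosing and none lower.

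In the other direction, 18 of 30 gluconeogenesis and glucocorticoid genes were lower in 2-AAF long, where 17.5% of all tested genes were, and none higher. Sds had 6.30, 6.95 and 6.49 in 2-AAF long rats, against 13.05, 11.33 and 12.19 in 2-AAF short rats, a difference of -5.61 ± 0.63, adjusted p = 5.88e-08. Scd, which desaturates fatty acids, differed by -5.71 ± 0.53, adjusted p = 1.37e-09, where the single dose against control had given 0.24 (adjusted p = 0.842). Stac3 (-5.23), A2m, an acute phase protease inhibitor gene (-4.06), and Fam111a (-4.12 ± 1.53, adjusted p = 0.0348) were the others of the 5 lowest. Fam111a varied widely among rats of the same group, with an SD of 1.78 in 2-AAF short and 2.20 in 3MeDAB short. Ppargc1a had 6.86, 6.69 and 6.58 in 2-AAF long rats, against 9.34, 7.50 and 8.38 in 2-AAF short rats, and its difference was -1.70 ± 0.32, adjusted p = 9.66e-05.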

How the data were processed

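The series holds 65 Affymetrix rat arrays, hybridised with liver RNA of 1 rat each. Per the submitters' processing notes, the authors used RMA (no version given), and the deposited table holds log2 signal for 31099 probe sets after its background correction, quantile normalization and summary. There is no depth on an array, so precision is set by how many there are. Group and replicate were read from the titles, per the labels, which call the replicates biological. The labelled 3 and 72 hours differ from the treatment protocol's account of repeated dosing and autopsy a day later, so the words short and long are kept.

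Of the probe sets, 20832 carry exactly 1 symbol, 9831 carry none and 436 carry several; the 57 controls were dropped. Each of 14217 genes is read from its brightest probe set. Genes over log2 6.03 (the median of the table) in 2 or more of 41 arrays were tested, 11007 in all. The model in limma 3.58.1 (R 4.3.3) took the 41 arrays of the genotoxic and nongenotoxic sets, 14 group means and default eBayes, with 27 residual and 4.02 prior degrees of freedom, so that all groups inform each gene's spread. Tests are two-sided. Calls need a Benjamini-Hochberg adjusted p below 0.05. The fit was tested on simulated data.

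Members and the 31 gene lists were chosen with earlier results of these data known, so lists are given as counts and medians, without a test. Against control, a count near the share over all tested genes (4.27% higher, 4.22% lower) is no result about a list. Named are the 15 highest and 15 lowest called genes without overlap of rats, up to 5 called members per list, the 5 highest and 5 lowest in each other comparison, and index genes. Further genes were chosen after their values were seen.

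Other settings were: genes unfiltered or filtered at log2 7.99, probe sets averaged, eBayes with trend and robust options, all columns quantile normalized together, the genotoxic set alone, the compared groups alone, replicate as a block, and rats left out singly or, a choice made after seeing the data, both rats numbered 1 at once. Promoter windows are from RefSeq (GRCr8). Figures used Python 3.11.15, matplotlib 3.10.9 and pandas 2.3.3.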

Additional observations from a re-analysis of the deposited data

Results flagged for a closer look

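The effect of 2-AAF differed between the durations (2-AAF long minus 2-AAF short, limma, adjusted p under 0.05) in 12 of the 30 leading genes of the single dose. Over all tested genes 35.8% differed, so this share is near the background and is no result about the leading genes as a set. The difference was -5.61 for Sds, -2.84 for Lpin1, -2.03 for Slc25a32, -1.86 for Trim36, -1.77 for Mfsd2a, -1.72 for Zfp354a, -1.7 for Ppargc1a and -1.48 for Slc25a29, all of which were higher than control after the single dose. It was -1.53 for Slc25a30, which was already lower than control after the single dose. It was 0.8 for Id3, 1.05 for Anks4b and 1.7 for Mid1ip1, which were lower than control after the single dose. These genes were chosen for their values in 2-AAF short rats, which also enter the difference between durations.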

How the results depend on the processing

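None of the 30 leading differences reversed under any alternative, while the median of the AHR targets, 0.21, was -0.10 without 2-AAF short rat 1 and -0.09 without both rats numbered 1. The count against control was 935 and became 568 with only the genotoxic set, 410 with only the compared groups, 234 without both rats numbered 1, and 399 to 1356 with single rats left out. Against 3MeDAB short the 197 became 59, 0 (limma, with 909 genes at an unadjusted p under 0.05) and 21 to 497; against DEN short the 1344 became 884, 513 and 600 to 1197; for long minus short the 3938 became 1128 with only the compared groups and 3016 to 4404. With a replicate block the counts were 942, 189, 1328 and 3912, which changed no count by over 1.5 times. Deviations of same-numbered rats correlated at 0.06, 0.01 and -0.03, and 2-AAF short rat 3 correlated best with control rat 2 (0.10). These values show no pairing by number, but with 3 rats per group they cannot exclude a small shared effect. After quantile normalization, 76.6% of called genes were higher against 3MeDAB short (147 higher and 45 lower, 89.3% before) and 53.5% against DEN short (784 higher and 681 lower, 66.6% before). Of the 15 highest genes 10, and of the 15 lowest 5, passed under all alternatives in which they were tested; the cause of the lost calls was not tested.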

Other observations

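The mitochondrial carrier family Slc25 was looked at after its values were seen, because 3 members stood among the leading genes. Of 33 tested members, 9 were called higher and 1 lower, 27.3% higher against 4.27% of all tested genes, with a family median of 0.11. Beside Slc25a32, Slc25a29 and Slc25a15, these were Slc25a22, a glutamate carrier gene, at 0.98 ± 0.12, adjusted p = 2.77e-06, Slc25a25, an ATP-magnesium carrier gene, at 1.20 ± 0.35, adjusted p = 0.029, Slc25a33, a pyrimidine nucleotide carrier gene, at 0.84 ± 0.23, adjusted p = 0.0192, Slc25a48, Slc25a45 and Slc25a44. Slc25a22 had 12.32, 12.12 and 12.16 in 2-AAF short rats, against 11.09, 11.22 and 11.34 in control rats, every treated rat above every control, and was 0.68 higher than with 3MeDAB short (adjusted p = 0.00173). Slc25a33 had 8.87, 8.91 and 8.93 in 2-AAF short rats, against 8.64, 7.85 and 7.70 in control rats. Here control rat 1 lay between the treated rats and the other controls.

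The Klf family of zinc finger regulators was also chosen after its values were seen. Of 12 tested members, 4 were called higher and none lower, 33.3% higher against 4.27% of all tested genes: Klf6, Klf15 at 1.40 ± 0.32, adjusted p = 0.00509, Klf13 at 1.12 ± 0.32, adjusted p = 0.0263 and Klf9, a glucocorticoid target, at 0.89 ± 0.21, adjusted p = 0.00798. Klf15 had 11.3, 11.1 and 11.2 in 2-AAF short rats, against 10.8, 9.3 and 9.3 in control rats. Control rat 1 thus lay between the treated rats and the other controls, as in Usp2 and Zfp354a. The list of glucocorticoid genes holds Klf9 too, so the counts are not independent.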
